A study of Mus musculus with 7 samples.

Results

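Gfap, Vim, Nes and Synm are the genes of the intermediate filament proteins of glia, and all 4 were found by their symbols among the 35976 genes of the count table. They were measured by RNA-seq in cells of the amygdala of male C57BL/6J mice, enriched for astrocytes with magnetic beads against the surface antigen ACSA-2. The sgEgfr group, with 3 libraries, had received an adeno-associated virus with a guide RNA against Egfr, which encodes a receptor for epidermal growth factor. The sgRosa group, with 4 libraries, had received the virus with a guide against the Rosa locus, which serves as a control. In both groups the virus made Cas9 from GfaABC1D, a short promoter derived from the human GFAP gene, so that editing was directed to cells that use this promoter. All mice of both groups were given at least 2 weeks for expression, then restraint stress on 7 days, followed by 1 day on which fear was conditioned and 3 on which it was extinguished, and no unstressed group is among the libraries analysed here. The age of the mice, and whether each library came from its own mouse, are unknown from these sources, and the p-values measure the spread between these libraries.

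Intermediate filaments are rope-like polymers that give a cell mechanical strength. Glial fibrillary acidic protein, encoded by Gfap, is the main filament protein of mature astrocytes and accumulates when they become reactive after injury or disease. Vimentin, encoded by Vim, assembles with it in immature and reactive astrocytes and is also made by ependymal cells, which line the ventricles, and by endothelial cells and fibroblasts. Nestin, encoded by Nes, is known from neural progenitors and does not build filaments without a partner such as vimentin. Synemin, encoded by Synm, also needs a partner and ties the filaments to linker and membrane proteins. The amygdala lies beside the lateral ventricle, whose ependymal cells carry motile cilia and express Foxj1, the transcription factor that drives the making of such cilia.

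The depth was 5852870 to 22579222 counts per library. Libraries sgRosa 3 and sgRosa 4 lay near the sampling noise of each other (chi-square of 1.04 per degree of freedom over 13563 genes, against 14.8 to 158 in the other 20 pairs), so their counts were added up and treated as a single sample, sgRosa 3+4, giving 3 samples per group. Egfr itself had 169, 87 and 184 counts in sgEgfr 1, 2 and 3, against 188, 55, 109 and 58 counts in sgRosa 1, 2, 3 and 4. Its log2 fold change was -0.13 (SE 0.54, edgeR adjusted p = 0.997), so its mRNA did not serve as a check of the labels. Transcripts of 10 oligodendrocyte markers took 8.07% to 14.3% of counts in sgEgfr and 7.17% to 10.6% in sgRosa, while those of 15 astrocyte markers took 0.804% to 1.15% in sgEgfr and 0.509% to 1.31% in sgRosa. In such mixed samples, fewer cells of a type and less RNA per cell cannot be told apart.

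The genes lie on 4 chromosomes of the mouse genome (build GRCm38, GENCODE vM21): Gfap on chromosome 11 (102887336 to 102900912, minus strand), Vim on chromosome 2 (13573927 to 13582826, plus strand), Nes on chromosome 3 (87971078 to 87980451, plus strand) and Synm on chromosome 7 (67730160 to 67759742, minus strand). The annotated gene Gm26668 overlaps Gfap, and Ttc23 and Gm45102 overlap Synm, while none overlaps Vim or Nes. Whether reads were counted by strand is unknown from these sources, and reads from overlapping parts of Gfap and Synm cannot be assigned with certainty. The 250 bases before the RefSeq start (GRCm38.p6) are printed for Gfap, as the mouse counterpart of the promoter that drove Cas9, and for Vim and Nes, whose levels had the highest correlation among the filament genes. Each runs 5′ to 3′ on the strand of its gene, and capitals mark matches to the CCAAT box (CCAAT) and the TATA box (TATAAA).
Gfap, chr11:102897201-102897450, minus strand: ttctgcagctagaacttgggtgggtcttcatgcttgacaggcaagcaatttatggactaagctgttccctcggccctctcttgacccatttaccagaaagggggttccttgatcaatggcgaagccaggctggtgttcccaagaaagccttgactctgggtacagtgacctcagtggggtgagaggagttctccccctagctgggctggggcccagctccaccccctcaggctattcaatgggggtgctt
Vim, chr2:13574061-13574310, plus strand: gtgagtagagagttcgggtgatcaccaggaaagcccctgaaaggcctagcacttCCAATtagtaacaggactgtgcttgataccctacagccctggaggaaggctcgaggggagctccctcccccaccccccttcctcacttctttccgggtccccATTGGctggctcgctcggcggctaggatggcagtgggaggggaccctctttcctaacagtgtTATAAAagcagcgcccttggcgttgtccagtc
Nes, chr3:87970843-87971092, plus strand: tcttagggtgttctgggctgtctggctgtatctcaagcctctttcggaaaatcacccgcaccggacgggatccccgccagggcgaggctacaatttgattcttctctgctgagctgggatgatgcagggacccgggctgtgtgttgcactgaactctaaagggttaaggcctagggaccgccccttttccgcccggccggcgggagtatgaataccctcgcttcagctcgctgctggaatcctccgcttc

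The search covered both strands of these windows for 6 motifs. Vim held 2 CCAAT boxes and 1 TATA box, Synm held 1 CCAAT box, and no match was found in the windows of Gfap and Nes. Of 27025 promoters of the same length, 34.5% held a CCAAT box and 13% a TATA box. The other motifs were those of STAT factors (TTCNNNGAA, in 7.18% of promoters), AP-1 (TGANTCA, 6.87%), forkhead factors (GTAAACA, 3.09%) and the full palindrome of nuclear factor I (0.0407%), and none of the 4 genes had a match to them in its window. This says only that these letters are not in the windows.

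Per kilobase of annotated exon, Gfap was the most abundant of the filament genes in every sample. Its level was 115, 127 and 50.0 CPM per kilobase in sgEgfr 1, 2 and 3, against 34.0, 41.9 and 107 CPM per kilobase in sgRosa 1, 2 and 3+4, where CPM is the count scaled to library size by TMM factors, in counts per 1e6. Synm came next, at 9.91 to 14.7 CPM per kilobase over the 6 samples, and its highest sample lay below the lowest sample of Gfap. Vim ran from 1.201 to 16.03 CPM per kilobase and exceeded Synm in sgEgfr 3 alone. Nes was lowest, at 0.448 to 1.77 CPM per kilobase, so the ranges of Vim and Synm overlapped, and so did those of Nes and Vim.

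**Figure D1:**
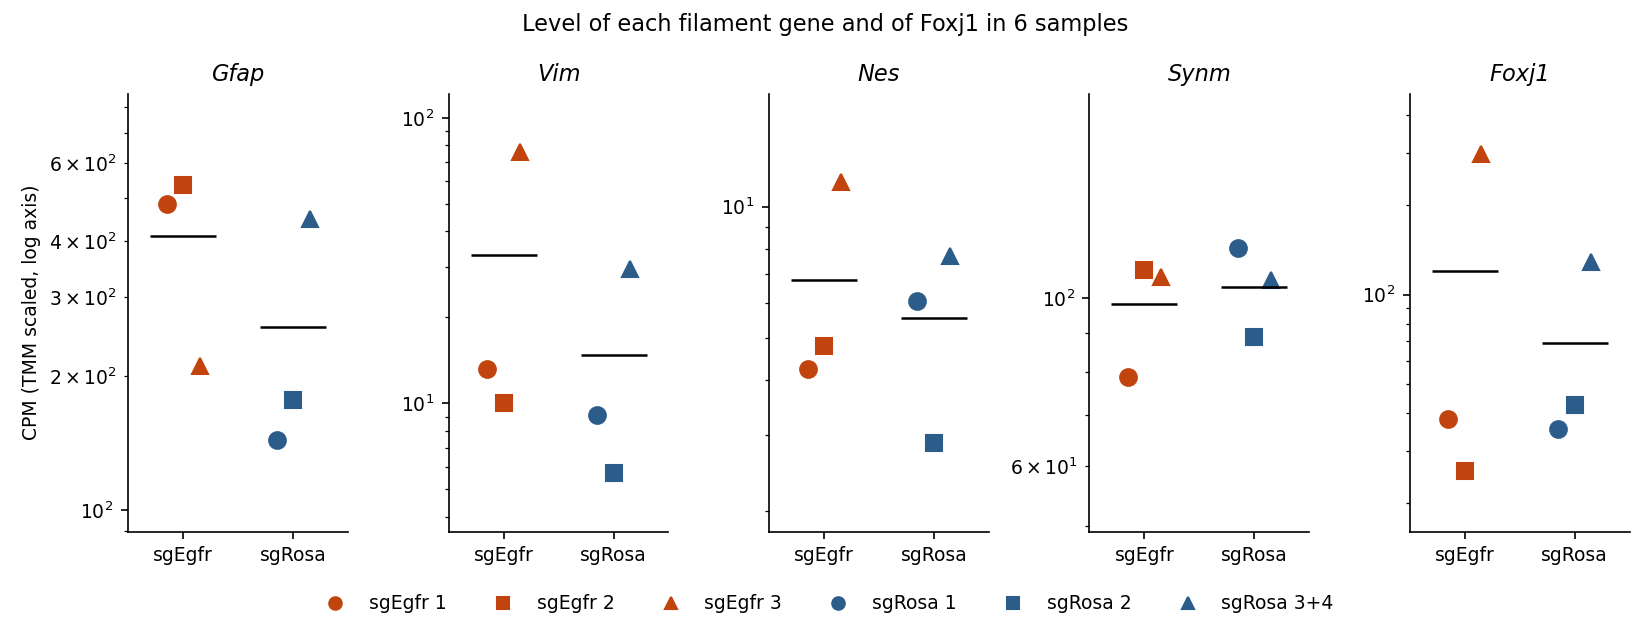
Level of Gfap, Vim, Nes, Synm and Foxj1 in CPM, on a log axis of its own for each gene, in the 3 sgEgfr samples (left) and the 3 sgRosa samples (right). Points are samples and bars are group means; Vim, Nes and Foxj1 are highest in sgEgfr 3, with sgRosa 3+4 next, while Gfap is highest in sgEgfr 2 and Synm in sgRosa 1.

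Gfap had the larger mean in sgEgfr, but its groups overlapped. It was at 486, 536 and 211 CPM in sgEgfr 1, 2 and 3, against 143, 177 and 450 CPM in sgRosa 1, 2 and 3+4. Each group thus held 1 sample apart from its other 2: sgEgfr 3 was low among the sgEgfr samples, and sgRosa 3+4 was high among the sgRosa samples. The mean was 411 ± 175 CPM in sgEgfr and 257 ± 168 CPM in sgRosa (SD, n = 3 each), a log2 fold change of 0.68 (SE 0.51, 95% confidence interval -0.50 to 1.86, edgeR adjusted p = 0.997). The estimate was 1.36 without sgRosa 3+4 (unadjusted p = 0.0160, edgeR adjusted p = 0.738) and 0.39 without sgRosa 1. Set against the summed level of the 15 astrocyte markers, Gfap amounted to 4.46%, 5.96% and 1.96% in sgEgfr 1, 2 and 3, against 1.21%, 3.62% and 3.44% in sgRosa 1, 2 and 3+4, so that the groups overlapped on this scale as well. With the astrocyte list as a covariate the log2 fold change of Gfap was 0.59 (edgeR adjusted p = 0.975).

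Vim varied most among the filament genes, and most of its excess in sgEgfr came from a single sample. It was at 13.2, 10.01 and 76.0 CPM in sgEgfr 1, 2 and 3, against 9.10, 5.70 and 29.4 CPM in sgRosa 1, 2 and 3+4. sgEgfr 3 stood above every other sample, sgRosa 3+4 was next, and the remaining 4 samples lay close together. The highest sample was 13.4-fold above the lowest. With 0.5 CPM added to the highest and lowest values of each gene, 2.08% of all genes tested had a wider spread. The mean was 33.1 ± 37.2 CPM in sgEgfr and 14.75 ± 12.8 CPM in sgRosa (SD, n = 3 each), a log2 fold change of 1.17 (SE 0.89, 95% confidence interval -0.89 to 3.23, edgeR adjusted p = 0.997). Without sgEgfr 3 the log2 fold change was -0.35, and without sgRosa 3+4 it was 2.17.

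Nes followed the same order of samples at its top and bottom, at a far lower level. It had 67, 73 and 260 counts in sgEgfr 1, 2 and 3, against 86, 55, 72 and 49 counts in sgRosa 1, 2, 3 and 4. This gave 4.25, 4.78 and 11.4 CPM in sgEgfr 1, 2 and 3, against 6.07, 2.87 and 7.69 CPM in sgRosa 1, 2 and 3+4. sgEgfr 3 was highest and sgRosa 2 lowest, as for Vim, but sgRosa 1 lay above sgEgfr 1 and sgEgfr 2. The mean was 6.80 ± 3.97 CPM in sgEgfr and 5.55 ± 2.45 CPM in sgRosa (SD, n = 3 each). This was a log2 difference of 0.30 with an SE of 0.52 (edgeR adjusted p = 0.997), with 95% limits at -0.90 and 1.502. It was -0.29 without sgEgfr 3 and -0.019 without sgRosa 2.

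Synm was the steadiest. It was at 78.6, 109 and 107 CPM in sgEgfr 1, 2 and 3, against 117, 88.9 and 106 CPM in sgRosa 1, 2 and 3+4. The highest sample was 1.48-fold above the lowest. With 0.5 CPM added as for Vim, 74.9% of all genes tested had a wider spread. The mean was 98.2 ± 17 CPM in sgEgfr and 104 ± 13.98 CPM in sgRosa (SD, n = 3 each), a log2 fold change of -0.08 (SE 0.18, 95% confidence interval -0.51 to 0.35, edgeR adjusted p = 0.997). Its interval was the narrowest of the 4, and the sign turned without sgEgfr 1 (0.056) and without sgRosa 1 (0.014).

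Of the 4 filament genes, 0 were called by edgeR at an adjusted p under 0.05, where 0% of the 14936 genes tested were called, and 0 of 4 had an unadjusted p under 0.05, where 2.68% of all genes did (401 genes). DESeq2, limma-voom and limma-voom with quality weights also called 0 genes, with 500, 418 and 793 genes at an unadjusted p under 0.05. With quality weights Gfap had a log2 fold change of 1.01 (unadjusted p = 0.04997, limma adjusted p = 0.850). Separate CPM ranges in sgEgfr and sgRosa were seen for 0 of the 4, against 7.61% of all genes tested (3.76% with sgEgfr higher and 3.85% with sgEgfr lower). The median log2 fold change was 0.49 over the 4 genes and 0.02 over all genes tested.

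**Figure D2:**
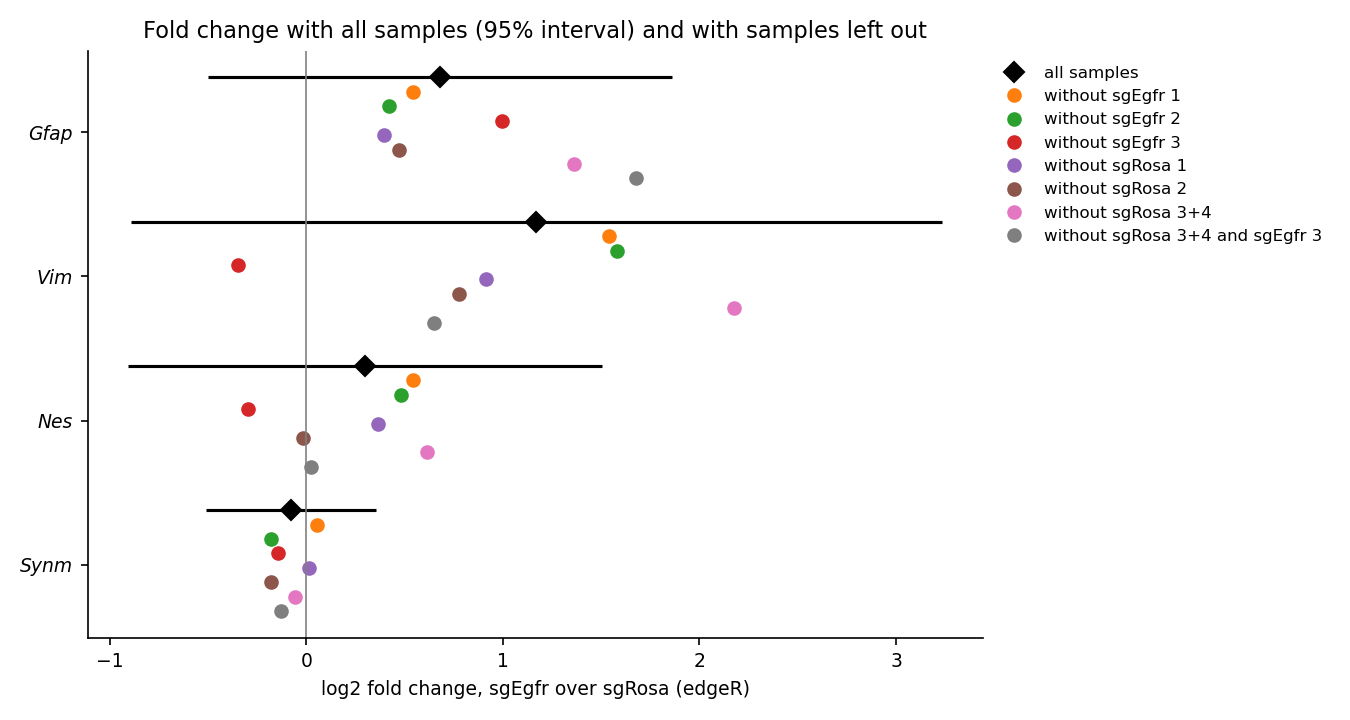
Log2 fold change of each filament gene, sgEgfr over sgRosa, from edgeR (x axis). Diamonds with 95% confidence intervals are the values with all 6 samples, and circles are the values with the named samples left out; Vim and Nes fall below 0 without sgEgfr 3, while Gfap stays between 0.39 and 1.68.

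The ratios between the filament genes within a sample, which do not depend on how libraries are scaled to each other, did not differ between the groups beyond the spread of the samples. Vim amounted to 0.0272, 0.0187 and 0.361 of the count of Gfap in sgEgfr 1, 2 and 3, against 0.0635, 0.0323 and 0.0654 in sgRosa 1, 2 and 3+4. sgEgfr 3 therefore had by far the most Vim per Gfap, while sgEgfr 1 and sgEgfr 2 had less than every sgRosa sample. The mean log2 ratio of Vim to Gfap was -4.10 ± 2.29 in sgEgfr and -4.22 ± 0.54 in sgRosa, a difference of 0.12 (SD, n = 3 each, exact two-sided permutation p = 1). Nes per Gfap had the same shape, at 0.00874, 0.00891 and 0.0539 in sgEgfr 1, 2 and 3, against 0.0423, 0.0163 and 0.0171 in sgRosa 1, 2 and 3+4. Of the 6 ratios, the difference furthest from 0 was that of Synm to Vim, at -0.96 on the log2 scale (exact two-sided permutation p = 0.5). The smallest p was that of Synm to Gfap, whose mean log2 ratio was -1.96 ± 0.87 in sgEgfr and -1.12 ± 0.90 in sgRosa (exact permutation p = 0.3, adjusted p = 0.72 over 6 ratios). A design of 3 against 3 cannot give a p below 0.1.

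**Figure D3:**
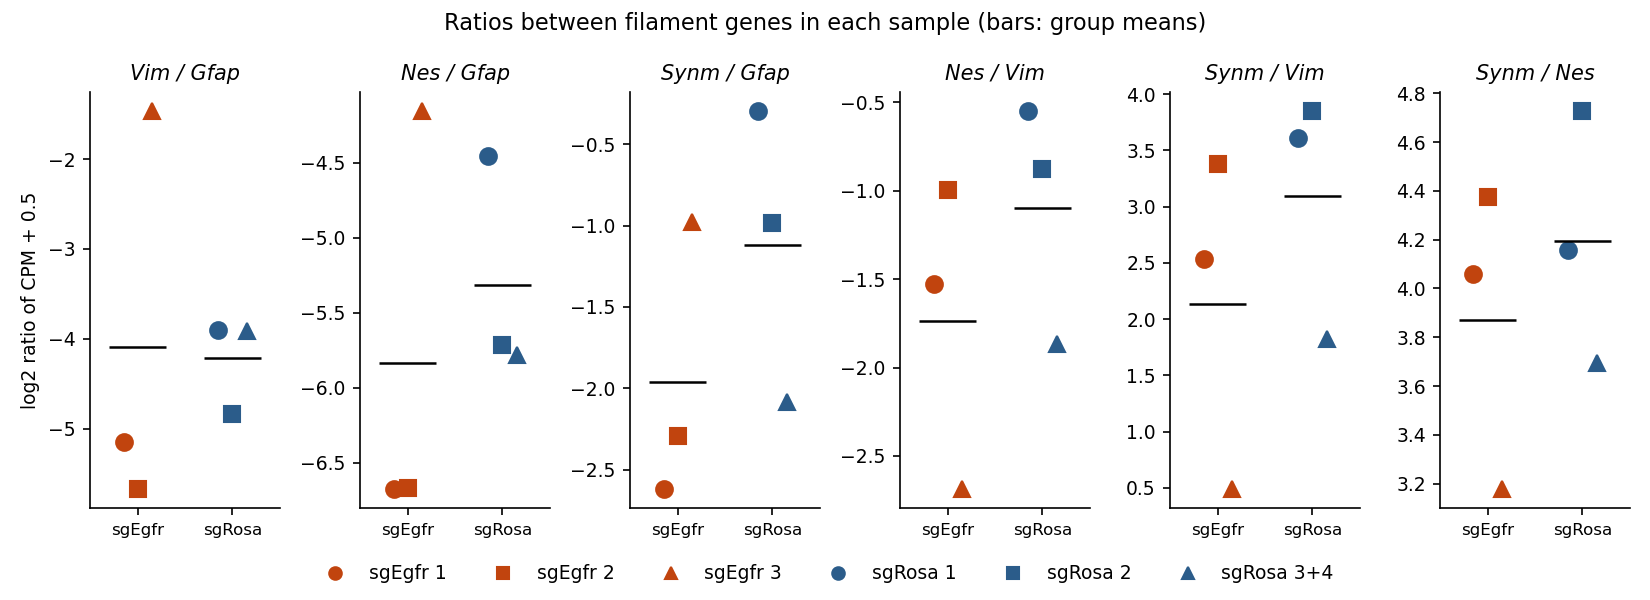
Log2 ratio between pairs of filament genes (y axis, log2 of the ratio of CPM + 0.5, own axis per panel) in sgEgfr samples (left) and sgRosa samples (right), with bars at the group means. In sgEgfr 3 the ratio of Vim to Gfap is -1.46 on the log2 scale, above all other samples, and the groups overlap in every panel.

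Among themselves, Vim and Nes had the highest correlation over the samples, though its adjusted p was above 0.05. Gfap had r near 0 with both, and Synm had a moderate r with Nes. Over 6 samples the log2 levels of Nes and Vim had a Pearson r of 0.92 (exact permutation p = 0.0111, adjusted p = 0.0667 over 6 pairs) and a Spearman rho of 0.77 (exact permutation p = 0.103, adjusted p = 0.617). Without sgEgfr 3 and sgRosa 3+4, the samples farthest from the median of Vim, r was 0.58. Gfap had r of 0.10 with Vim and -0.05 with Nes, and Synm had 0.25 with Vim, 0.58 with Nes and -0.27 with Gfap (exact permutation p of 0.240 to 0.922 for these 5 pairs). Without sgEgfr 3 and sgRosa 2, the samples farthest from the median of Nes, r of Synm with Nes was 0.60, much like the 0.58 left for Nes and Vim. Without sgRosa 1 and sgRosa 2, the samples farthest from the median of Gfap, its r was -0.93 with Vim and -0.88 with Nes over 4 samples. These values rested on sgEgfr 3, where the log2 level of Gfap was 7.72. It was 8.93, 9.07 and 8.82 in sgEgfr 1, sgEgfr 2 and sgRosa 3+4.

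Foxj1, the marker of ciliated ependymal cells, was highest in the same 2 samples as Vim and Nes. It was at 38.3, 25.7 and 296 CPM in sgEgfr 1, 2 and 3, against 35.4, 42.6 and 128 CPM in sgRosa 1, 2 and 3+4. The groups overlapped, with a log2 fold change of 0.80 (SE 0.93, 95% confidence interval -1.37 to 2.98, edgeR adjusted p = 0.997), and of -1.11 without sgEgfr 3. The other 19 ependymal markers, mostly genes of motile cilia, were all highest in sgEgfr 3 and second highest in sgRosa 3+4. The marker list of 20 genes summed to 141, 54.6 and 1896 CPM of the total count in sgEgfr 1, 2 and 3, against 99.7, 64.3 and 667 CPM in sgRosa 1, 2 and 3+4. All 20 had positive log2 fold changes with a median of 1.44, and the median was -2.05 without sgEgfr 3 and 3.92 without sgRosa 3+4. Of the 20, 0 were called.

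Foxj1 and the rest of the list parted in the samples with little ependymal RNA. Tmem212, a membrane protein gene of the list, had 99, 1 and 4103 counts in sgEgfr 1, 2 and 3, against 63, 0 and 954 counts in sgRosa 1, 2 and 3+4. Ccdc153, a coiled-coil protein gene, had 116, 8 and 4254 counts in sgEgfr 1, 2 and 3, against 52, 3 and 943 counts in sgRosa 1, 2 and 3+4. Foxj1 had 604, 392 and 6767 counts in sgEgfr 1, 2 and 3, against 502, 815 and 2018 counts in sgRosa 1, 2 and 3+4. In sgRosa 2, Foxj1 was thus above sgEgfr 1, sgEgfr 2 and sgRosa 1 in CPM although 6 of the other 19 ependymal markers were at 0 counts there. The other 19 markers together amounted to 533% of Foxj1 in sgEgfr 3 and 138% in sgEgfr 2, against 420% in sgRosa 3+4 and 44.7% in sgRosa 2.

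The relation of the filament genes to Foxj1 rested on sgEgfr 3 and sgRosa 3+4. On the log2 scale Vim had a Pearson r of 0.92 with Foxj1 over 6 samples (exact permutation p = 0.0236, adjusted p = 0.0917 over 4 genes) and a Spearman rho of 0.60 (exact permutation p = 0.242, adjusted p = 0.658). Nes had r of 0.81 (exact permutation p = 0.0458, adjusted p = 0.0917) and rho of 0.49 (exact permutation p = 0.356, adjusted p = 0.658). Without sgEgfr 3 and sgRosa 3+4, the samples farthest from the median of Foxj1, r was -0.38 for Vim and -0.53 for Nes, so neither relation held among the other 4 samples. Gfap had r of -0.14 and rho of -0.26 with Foxj1 (exact permutation p = 0.725 and 0.658). Synm had r of 0.20 and rho of -0.37 (exact permutation p = 0.740 and 0.497).

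**Figure D4:**
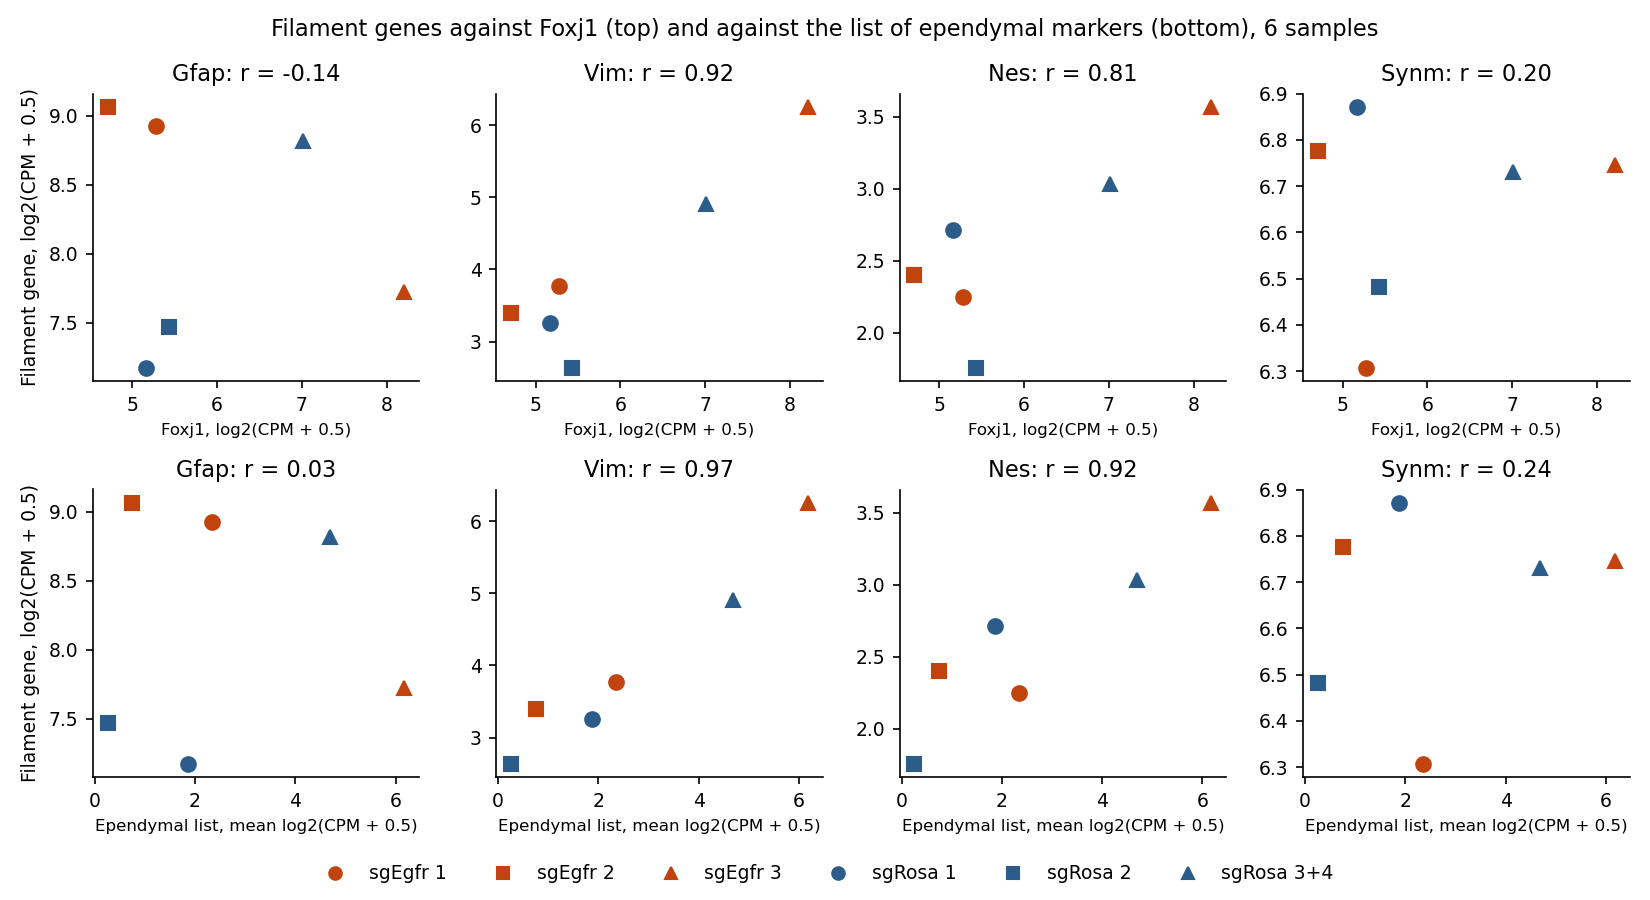
Log2 level of each filament gene (y axis) against the log2 level of Foxj1 (top row) and the mean log2 level of the 20 ependymal markers (bottom row) in 6 samples, with Pearson r over each panel. Vim has r = 0.97 with the ependymal list, with sgEgfr 2 and sgRosa 1 out of order, and r = 0.92 with Foxj1, where the 4 samples low in Foxj1 have r = -0.38.

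With the mean log2 level of the whole ependymal list in place of Foxj1, the relation of Vim and Nes was tighter. Vim had r of 0.97 (exact permutation p = 0.00278, adjusted p = 0.0111 over 4 genes) and rho of 0.94 (exact permutation p = 0.0167, adjusted p = 0.0667). Nes had r of 0.92 (exact permutation p = 0.0111, adjusted p = 0.0222) and rho of 0.83 (exact permutation p = 0.0583, adjusted p = 0.117). Without sgEgfr 3 and sgRosa 3+4, r was 0.81 for Vim and 0.60 for Nes. Gfap had r of 0.03 (exact permutation p = 0.943) and Synm 0.24 (exact permutation p = 0.668). There were too few samples with either guide, 3 each, to give these relations within a group.

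The ratio to Foxj1 in count had a narrower range for Vim than for Gfap. Both ends of the range for Vim, in sgRosa 2 and sgEgfr 2, lay among the 4 samples low in Foxj1. Over these 4 samples r of Vim with Foxj1 was -0.38. There were 0.344, 0.390 and 0.257 CPM of Vim for each CPM of Foxj1 in sgEgfr 1, 2 and 3, against 0.257, 0.134 and 0.229 in sgRosa 1, 2 and 3+4, a 2.92-fold range. For Gfap the values were 12.7, 20.9 and 0.713 in sgEgfr 1, 2 and 3, against 4.05, 4.15 and 3.51 in sgRosa 1, 2 and 3+4, a 29.3-fold range. Nes spanned a 4.85-fold range and Synm an 11.8-fold range over the 6 samples. Among the sgEgfr samples, sgEgfr 3 had the most Foxj1, the most Vim and the least Gfap. The sgRosa samples differed for Gfap, as sgRosa 3+4 had the most Foxj1, the most Vim and also the most Gfap.

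With a measure of ependymal RNA as a covariate, the estimate for Vim was smaller. With Foxj1 as the covariate the log2 fold change of Vim was 0.66 (unadjusted p = 0.0408, edgeR adjusted p = 0.9998), and with the ependymal list it was 0.46 (unadjusted p = 0.0472, edgeR adjusted p = 0.987), against 1.17 with no covariate. Nes had 0.12 with Foxj1 and 0.04 with the list, against 0.30. Gfap had 0.63 with Foxj1 and 0.69 with the list, against 0.68, and Synm had -0.09 and -0.10, against -0.08. Without both sgEgfr 3 and sgRosa 3+4, an alternative chosen with the data in view, Vim had 0.65 and Gfap 1.68. These are the sgEgfr sample lowest in Gfap and the sgRosa sample highest in it, so the larger value for Gfap follows from the choice and is given with no test.

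Markers of other cell types were set beside Vim and Nes in the same way. The 15 endothelial markers summed to 251, 272 and 285 CPM of the total count in sgEgfr 1, 2 and 3, against 184, 188 and 204 CPM in sgRosa 1, 2 and 3+4, so that these sums did not overlap. Taken singly, 7.61% of all genes tested had separate ranges. Slc2a1, the largest part of the sums, overlapped, at 136, 187 and 191 CPM (TMM) in sgEgfr 1, 2 and 3, against 78.5, 119.5 and 147 CPM in sgRosa 1, 2 and 3+4. Of the 15 genes, 12 had positive log2 fold changes and 3 negative. Their r with Vim ran from -0.47 to 0.57 with a median of 0.02. With the endothelial list as a covariate the log2 fold change was 1.26 for Gfap, 2.05 for Vim, 0.35 for Nes and -0.24 for Synm (edgeR adjusted p of 0.971 to 0.984). As this list itself leaned toward sgEgfr, a fit to 6 samples cannot cleanly part the guide from the covariate. Sums of fibroblast and meningeal markers only just parted between the groups, at 151.6 to 253 CPM of the total count in sgEgfr and 72.6 to 150.9 CPM in sgRosa. The closest samples were sgEgfr 3 and sgRosa 2. The largest part of them was Pdgfra, which is also a marker of oligodendrocyte precursors. It was at 171, 100 and 91.5 CPM (TMM) in sgEgfr 1, 2 and 3, against 36.3, 79.0 and 29.2 CPM in sgRosa 1, 2 and 3+4. This separation therefore cannot be assigned to fibroblast or meningeal cells. Over 9 genes of the list the median r was -0.22 with Vim and -0.27 with Nes. Markers of neural stem cells and neuroblasts summed to 90.2 to 186 CPM of the total count in sgEgfr and 86.9 to 207 CPM in sgRosa. Their median r was 0.38 with Vim and 0.53 with Nes over 9 genes. The markers of mural cells, the contractile cells of vessels, summed to 646 to 870 CPM of the total count in sgEgfr and to 764 to 840 CPM in sgRosa. Their median r with Vim was -0.13 over 11 genes. Microglia and macrophage markers had a median r of 0.58 with Gfap, -0.28 with Vim and -0.45 with Nes over 12 genes, and oligodendrocyte markers had -0.75 with Vim and -0.81 with Nes over 10 genes. Markers of the choroid plexus, the secretory tissue of the ventricles, had a median r of 0.71 with Vim and 0.48 with Nes over 6 genes. With Vim the values ran from -0.21 to 0.94 and 4 of the 6 were positive, so these markers did not move as 1 set. The choroid plexus markers summed to 46.0, 13.04 and 74.0 CPM of the total count in sgEgfr 1, 2 and 3, against 65.4, 12.6 and 52.5 CPM in sgRosa 1, 2 and 3+4. The 20 ependymal markers had r of 0.92 to 0.99 with Vim and of 0.75 to 0.96 with Nes, but of -0.14 to 0.29 with Gfap, where the median over all genes tested was near 0 for each (0.01, 0.01 and 0.02). Astrocyte markers had a median r of 0.43 with Gfap, 0.57 with Vim, 0.70 with Nes and 0.26 with Synm over 15 genes. For oligodendrocyte precursor markers the median r was 0.25 with Gfap, -0.26 with Vim, -0.53 with Nes and -0.67 with Synm over 10 genes. With Synm their values ran from -0.88 to -0.25. These correlations are over 6 samples that share their libraries and scaling, and they are given as a description. The part of RNA from these cell types in the levels of the filament genes was not tested beyond the fits with covariates and left-out samples.

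**Figure D5:**
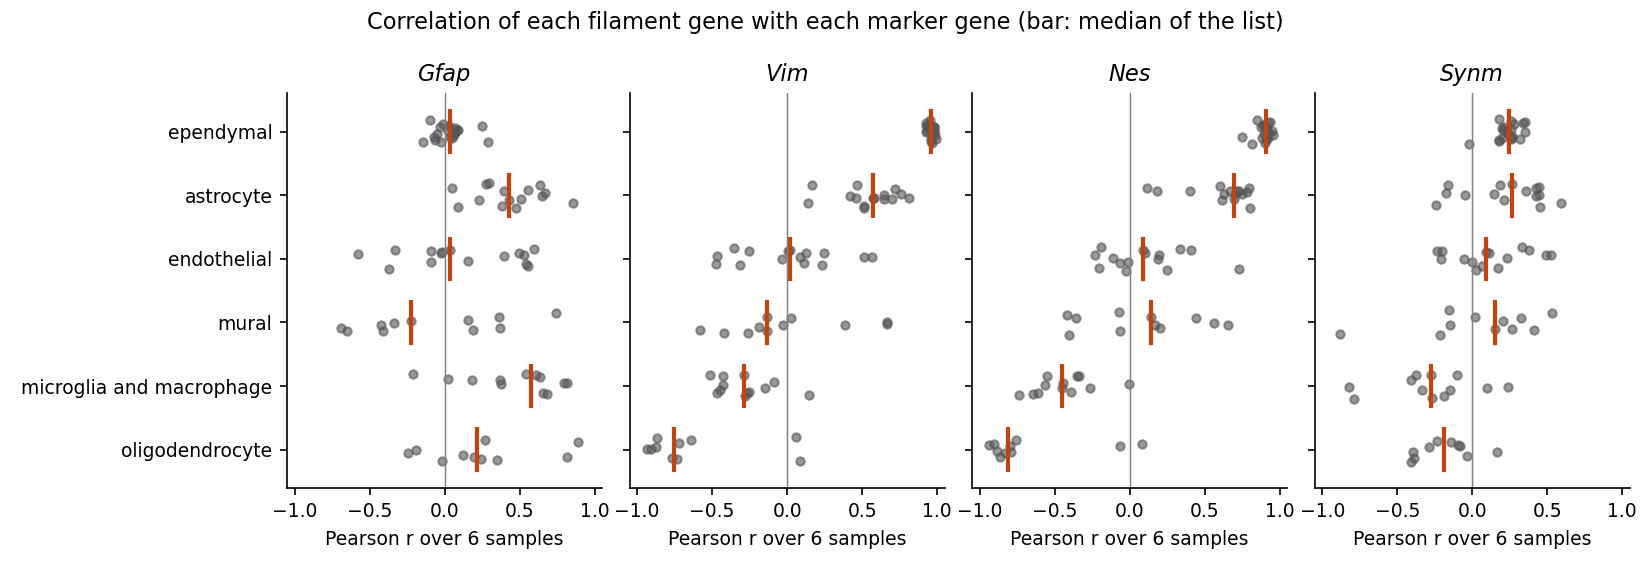
Pearson r over 6 samples (x axis) between each filament gene (panel) and each gene of 6 of the 11 marker lists (rows). Lists not drawn include choroid plexus (median r of 0.71 with Vim) and neural stem and neuroblast (0.53 with Nes). Points are marker genes and bars are list medians; the ependymal markers have a median r of 0.96 with Vim and 0.91 with Nes, against 0.03 with Gfap and 0.25 with Synm.

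The genes whose log2 levels were most like those of each filament gene over the 6 samples were taken from 9037 genes with a mean of at least 10 CPM. For Vim they were Mlf1 (r = 0.998), the ribosomal protein gene Rpl5 (0.995), Crip2 (0.995), Dnaic1, a dynein gene of motile cilia (0.995), and the elongation factor gene Elof1 (0.994). Mlf1 was at 6.79, 4.32 and 114 CPM in sgEgfr 1, 2 and 3, against 2.68, 1.41 and 24.9 CPM in sgRosa 1, 2 and 3+4. For Nes they were Lrrc51 (0.990), Bphl (0.986), Mllt1 (0.986), Vstm4 (0.986) and Avpi1 (0.986).

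Gfap was most like a different set: Txnrd2, a thioredoxin reductase gene of mitochondria (0.989), Psme1, a subunit of a proteasome activator (0.987), the mitochondrial ribosome gene Mrps7 (0.985), Cox6b1, a subunit of cytochrome oxidase (0.984), and B2m, the light chain of class I histocompatibility molecules (0.983). B2m was at 119, 158 and 61.1 CPM in sgEgfr 1, 2 and 3, against 49.0, 55.6 and 107 CPM in sgRosa 1, 2 and 3+4, so that sgEgfr 3 was low and sgRosa 3+4 high within their groups, as for Gfap. Synm was most like Zdhhc6 (0.980), the autophagy gene Map1lc3b (0.974), Usp4 (0.971), Samm50 (0.966) and Psmd2 (0.959). With so little spread in Synm these values leaned on the scaling: with CPM of the total count, r with Zdhhc6 was 0.13. None of the 20 genes was called (edgeR adjusted p = 0.997 for each).

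Of the other filament genes and their partners, 0 were called in any of 6 lists. All 5 neuronal filament genes had positive log2 fold changes, with a median of 0.48, against 0.02 over all genes tested, of which 52.9% were positive. This median was 0.14 without sgRosa 2, 0.27 without sgEgfr 3, 0.91 without sgRosa 1 and 0.022 with the endothelial covariate. Nefl, the light neurofilament chain, was at 57.1, 105 and 95.3 CPM in sgEgfr 1, 2 and 3, against 69.4, 35.7 and 62.7 CPM in sgRosa 1, 2 and 3+4 (log2 fold change 0.62, SE 0.31), and Nefm, the medium chain, had 0.48. The groups overlapped for both. Neuron markers lay beside them, with 11 of 11 tested positive. Their sums, in CPM of the total count, were 524 to 544 in sgEgfr and 383 to 498 in sgRosa. Unlike the values of Nefl, these sums were not TMM scaled, and whether they stay apart with TMM scaling was not tested. The part of neuron RNA in the neurofilament values was not tested either. Of 6 other cytoplasmic filament genes tested from a list of 8, 4 were positive. Sync, which encodes syncoilin, had a log2 fold change of 2.05 (SE 0.82, edgeR adjusted p = 0.997). It had 16, 13 and 42 counts in sgEgfr 1, 2 and 3, against 3, 1 and 10 in sgRosa 1, 2 and 3+4. Its ranges did not overlap, at 0.851 to 1.84 CPM in sgEgfr and 0.0523 to 0.636 CPM in sgRosa. Such separate ranges were seen for 7.61% of all genes tested. The log2 fold change of Sync was 1.52 without sgRosa 2, 1.63 without sgEgfr 3 and 3.24 without sgRosa 3+4. Krt18, an epithelial keratin, reached 17.3 CPM in sgEgfr 3, against at most 2.33 CPM in the other samples.

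The nuclear lamins, which line the nuclear envelope, had a median log2 fold change of 0.07, with 0.22 for Lmna and -0.09 for Lmnb2. Cytolinkers and membrane anchors, which tie filaments to the rest of the cell, had 6 of 11 tested members positive and a median of 0.02. The smallest p among them were those of Tln1, talin, at -0.22 (SE 0.13), and Macf1, a linker to actin and microtubules, at -0.21 (SE 0.16). Genes of filament chaperones and turnover had 6 of 8 positive and a median of 0.17. Hspb1, a small heat shock protein, had 1.61 (SE 0.63, unadjusted p = 0.0354) with overlapping groups, at 5.20 to 21.4 CPM in sgEgfr and 1.91 to 6.68 CPM in sgRosa. It had 0.91 without sgEgfr 3, and Hspb8, of the same family, had 0.70 with all samples. Transcription factors that act on Gfap and Vim had 2 of 10 positive and a median of -0.09, with -0.20 for Nfix and -0.35 for Nfia, both of the nuclear factor I family. Nfia was at 428, 352 and 789 CPM in sgEgfr 1, 2 and 3, against 845, 614 and 542 CPM in sgRosa 1, 2 and 3+4. Its log2 fold change was -0.78 without sgEgfr 3, -0.15 without sgEgfr 2, -0.23 without sgEgfr 1 and -0.15 without sgRosa 1.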

How the data were processed

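The deposited values are raw counts of reads per gene, and the table used here equals the 7 separate library files. The submitters' processing notes name the build mm10, the aligner STAR 2.7.5c and the counter featureCounts 2.0.1, beside edgeR 3.42.4, fastp 0.23.2, MultiQC 1.11 and FastQC 0.11.9. Not given in the sources used here were the annotation, the strand setting and how multi-mapped reads were handled.

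Counts of sgRosa 3 and 4 were summed after chi-square tests of all pairs (genes of 20 counts or more). Genes were filtered with filterByExpr (minimum count 10, minimum total 15), scaled with TMM and fitted on the guide alone by edgeR 4.0.16 (glmQLFit, glmQLFTest; R 4.3.3). P-values were adjusted by Benjamini-Hochberg over 14936 genes. The script was tested on simulated counts. Ratios and correlations used log2(CPM + 0.5) with exact permutation tests (Python 3.11.15). Levels per kilobase used the union of exons in GENCODE vM21. Alternatives were other scalings and filters, DESeq2 1.42.0, limma-voom (limma 3.58.1), all 7 libraries, a replicate block, covariates, other pseudocounts and left-out samples.

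The genes, lists and tests were chosen with earlier results of these data known. The genes named were Egfr, the filament genes, Foxj1 and the 5 most correlated genes of each filament gene. Added to these were the 2 of smallest p in each related list (the rule allowed up to 4) and the first 3 ependymal markers. Pdgfra and Slc2a1 were named as the largest parts of their marker sums. Figures were drawn with matplotlib 3.10.9.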

Additional observations from a re-analysis of the deposited data

How the results depend on the processing

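No filament gene was called under any alternative, and the count of called genes was 0 in each. Genes at an unadjusted p under 0.05 numbered 401, against 685 without a filter, 793 with limma-voom and quality weights, 705 with the replicate block, 628 with the ependymal list as a covariate and 1062 without sgRosa 3+4 and sgEgfr 3, and 236 to 684 with each sample left out (960 without sgRosa 3+4). Gfap kept its sign in every alternative, with log2 fold changes of 0.39 to 1.36 as samples were left out in turn. The signs of the other filament genes turned with single samples: the ranges were -0.35 to 1.58 for Vim (2.17 without sgRosa 3+4), -0.29 to 0.54 for Nes (0.62), -0.18 to 0.056 for Synm and -1.11 to 1.26 for Foxj1 (1.63). They were -0.93 to 2.72 for Krt18 and -0.19 to 0.044 for Lmnb2. With quality weights Nes had -0.10, Foxj1 -0.20, Vim 0.49 and Gfap 1.01. Gfap had 0.43 with 7 libraries, and Foxj1 had 0.19 with limma-voom. Krt18 had -0.057 with the ependymal covariate, and -0.64 without sgRosa 3+4 and sgEgfr 3, where Foxj1 had -0.29. The group difference of the log2 ratio of Vim to Gfap was 0.12, against -1.04 without these samples and -1.20 to 0.91 with each left out, and that of Synm to Nes was -0.32 (-0.58 to 0.025). Without the samples farthest from the median of Foxj1, r with Foxj1 was -0.38 for Vim, -0.53 for Nes and -0.59 for Synm. With the ependymal list as the measure it was 0.026 for Gfap, and the relations of Vim (0.97) and Nes (0.92) passed an adjusted p under 0.05. The causes were not tested.

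The replicate numbers matched the samples only in part. Deviations of same-numbered samples had correlations of -0.08, 0.50 and 0.55 for numbers 1, 2 and 3, with sgRosa 3+4 taken as number 3. Those of numbers 2 and 3 were the highest between any sgEgfr and any sgRosa sample. Number 1 did not match: sgEgfr 1 correlated best with sgRosa 2 (0.29). With the replicate block, Vim had a log2 fold change of 0.92 (unadjusted p = 0.00363, edgeR adjusted p = 0.954), Gfap 0.82, Nes 0.27 and Synm -0.08. Nes had the fewest counts of the 4 filament genes over all libraries, from 49 to 260 per library.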
